A study of Populus ussuriensis with 20 samples.

Results

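The 100 genes with the highest mean expression in the rooting stem base of Ussuri poplar (Populus ussuriensis) are described here, 100 of the 34699 genes measured. They were selected on their FPKM, a fragment count divided by gene length and by the fragment total of the library, averaged over all 20 libraries, by taking the 100 highest means. All 100 were among the 24934 genes that were tested because 2 or more libraries gave them an FPKM of 1 or above. The mean FPKM that chose them, and the size of their share of the total, are given as a description; only differences in that share between times and phosphate levels were tested. The courses over time and phosphate are differences between groups of libraries, which the ranking on the mean did not use, although a gene can also enter the 100 through a very high value in a few libraries.

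All cuttings already carried root primordia when the phosphate treatment began, and the labels name no genotype or line. Cuttings spent 5 days on solid Woody Plant Medium with 16 h of light and 8 h of darkness per day, and then went into a modified liquid form of that medium. The liquid held either 10 µM or 200 µM KH2PO4, the phosphate source, and basal ends were taken after 2, 4, 8, 12 and 24 h, with 2 libraries for each level and time. Each library came from a piece of stem that held the primordium and the tissue around it.

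Adventitious roots arise from stem tissue rather than from another root, and a stem base that is forming them contains wood, phloem, cortex and epidermis beside the primordia. Phosphate is a main mineral nutrient, and its supply is known to alter root growth in plants. In most plant tissues a small number of genes supplies a large part of the messenger RNA, so the most abundant transcripts weigh heavily on any value that is scaled to a library total. The genes carried identifiers only, which the files do not pair with names or descriptions, so no function, position or sequence is given for them. The tissue could not be checked against marker genes for the same reason. In pieces of whole tissue, fewer cells of a type and less RNA per cell cannot be told apart. Hours since transfer and hour of the light cycle cannot be told apart either.

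The library totals were worked out from the steps between FPKM values and lay between 14053677 and 15764764 fragments, a 1.12-fold range. A member rested on 889 to 102729 fragments in a library, with a median of 9605, so counting error was 3.4% at the lowest value and 1.0% at the median. The labels number the libraries of a group without saying whether they came from separate plants or cultures, so the p-values speak for the spread among these libraries alone, and that spread may be technical. The 2 libraries of a group were not alike to the same degree. Over the members, the SD of the log2 difference between replicates 1 and 2 was lowest at 0.145 at 10 µM and 4 h and highest at 0.499 at 200 µM and 8 h. The median size of that difference was largest at 2 h, with 0.268 at 10 µM and 0.295 at 200 µM. The library of replicate 2 at 10 µM and 8 h stood apart in 5 members, which are described further on.

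The 100 genes held 15.2% ± 1.4 (SD, n = 20) of the FPKM sum of a library, with a lowest share of 12.89%, a median of 15.66% and a highest share of 17.55%. Counted in fragments, which favours long genes, their share was 9.26% ± 0.71 (SD, n = 20). The mean FPKM fell off from 6449 for the first gene to 2382 for the gene at rank 5, 1890 at rank 10, 719.6 at rank 50 and 476.75 at rank 100. The line between members and other genes was narrow. Potri.010G205700, at rank 100, had a mean FPKM of 476.75, and Potri.014G052900, the first gene outside, had 475.73. From 1186 to 1520 genes were needed to reach 50% of the FPKM sum of a library.

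The share of the 100 genes was lower at the late times than at the early ones. At 2 h it was 17.05% and 16.8% in the libraries at 10 µM and 17.55% and 15.61% in those at 200 µM. At 4 h the shares were 16.78% and 16.35% at 10 µM and 16.2% and 15.71% at 200 µM. At 8 h they were 15.76% and 16.51% at 10 µM and 13.97% and 15.93% at 200 µM. All 4 libraries at 12 h lay below all 8 libraries at 2 and 4 h, and so did all 4 at 24 h. The shares at 12 h were 14.68% and 14.0% at 10 µM and 14.13% and 13.73% at 200 µM. At 24 h they were 12.89% and 13.56% at 10 µM and 14.35% and 13.17% at 200 µM. The 12 h and 24 h libraries overlapped, and the 8 h libraries spanned the gap between early and late.

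The variation of the share with time was larger than the spread within times (permutation test with 100000 resamples, times exchanged within each phosphate level, p = 0.00017, Benjamini-Hochberg adjusted p = 0.00051 over 3 tests of the share). The mean share went from 16.8% ± 0.82 (SD, n = 4) at 2 h to 13.5% ± 0.63 (SD, n = 4) at 24 h, a difference of -3.26 percentage points. The exact permutation test of those 8 libraries within levels gave a two-sided p = 0.056 and an adjusted p = 0.083; 0.056 is the smallest p that its 36 arrangements allow. Between the phosphate levels the share differed by 0.40 percentage points, higher at 10 µM, which did not exceed the spread (exact permutation test within times, two-sided, p = 0.23, adjusted p = 0.23). Without 5 members that moved together, which were chosen after their values were seen and include the 2 largest positive phosphate differences, it was -0.01 percentage points. Leaving those genes out had to lower the difference.

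**Figure D1:**
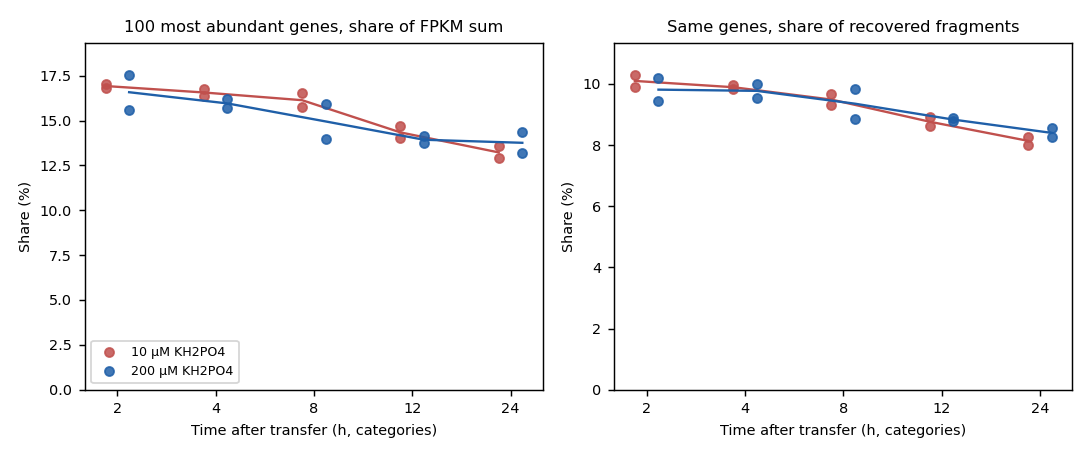
Share of the library total held by the 100 most abundant genes, in percent of the FPKM sum (left) and in percent of recovered fragments (right), against hours after transfer as evenly spaced categories. Points are libraries, red at 10 µM and blue at 200 µM KH2PO4, lines join group means, and both axes start at 0; the FPKM share runs from 17.55% at its highest, at 2 h, to 12.89% at its lowest, at 24 h.

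The share that the leading genes lost between 2 and 24 h was not matched by a higher share of the genes next in rank. The next 100 genes held 6.11% ± 0.27 (SD, n = 4) of the FPKM sum at 2 h and 6.02% ± 0.14 at 24 h, and genes at ranks 201 to 1000 held 23.0% ± 0.86 and 23.2% ± 0.38. The 2 lowest bands had higher mean shares at 24 h. Ranks 1001 to 5000 went from 29.9% ± 0.2 to 31.1% ± 0.28, and ranks 5001 to 34699 from 24.2% ± 0.67 to 26.2% ± 0.32. These shares sum to the whole, so a lower share in one band requires a higher share elsewhere. Within the members, the 10 leading genes held 5.1% ± 1.1 (SD, n = 4) at 2 h and 3.54% ± 0.35 at 24 h, ranks 11 to 50 held 7.21% ± 0.39 and 5.72% ± 0.35, and ranks 51 to 100 held 4.44% ± 0.23 and 4.23% ± 0.11.

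In FPKM, the members summed to 111193 ± 5283 (SD, n = 4) at 2 h and 85999 ± 4755 at 24 h, a decrease of 25194. The sum over all genes was 663881 at 2 h and 637186 at 24 h. The 4 most abundant genes accounted for 22.8% of the members' decrease, and the first of them alone for 10.7%. Of these 4, only the first passed the test between 24 and 2 h given below, and the gene at rank 2 differed widely between replicates at 2 h.

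Gene by gene, the members moved mostly downward over the time course. In limma's comparison of 24 h with 2 h on log2(FPKM + 1), averaged over both phosphate levels, 31 of 100 members were lower and 1 was higher at a Benjamini-Hochberg adjusted p under 0.05, whereas quantile normalization, which gives every library the same distribution of values, called 4 lower and 11 higher. Of all tested genes, 4.24% were lower and 8.05% higher without quantile normalization. With it, 1318 of the 24934 tested genes (5.29%) were lower and 1475 were higher. The members' median log2 difference was -0.23, against 0.05 over all tested genes, and it was 0.02 after quantile normalization. A positive difference was found in 24 of 100 members and in 59.8% of all tested genes. The 31 falls ranged from -1.84 to -0.28 with a median of -0.48 on the log2 scale, a median fold of 0.718; 9 of them exceeded 1.5-fold and 3 exceeded 2-fold. These 31 genes made up 67.5% of the members' decrease in FPKM.

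In each of the 31 genes, which were called for this difference, all 4 libraries at 24 h lay below all 4 at 2 h, so their differences are negative at both levels and without any 1 library. Such a separation downward was found in 40 of 100 members and in 6.24% of all tested genes, and the upward separation in 1 member and in 11.8% of all. The count of calls depended on single libraries. With all libraries 32 members and 12.3% of all tested genes were called. Fewer members and fewer of all tested genes were called without replicate 1 or replicate 2 of 10 µM at 24 h. The same held without replicate 2 of 10 µM at 2 h and without replicate 2 of 200 µM at 24 h. In these settings, in that order, the members' median log2 difference was -0.22, -0.26, -0.17 and -0.21, against -0.23 with all libraries. After quantile normalization 27 of the 31 differences were negative.

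**Figure D2:**
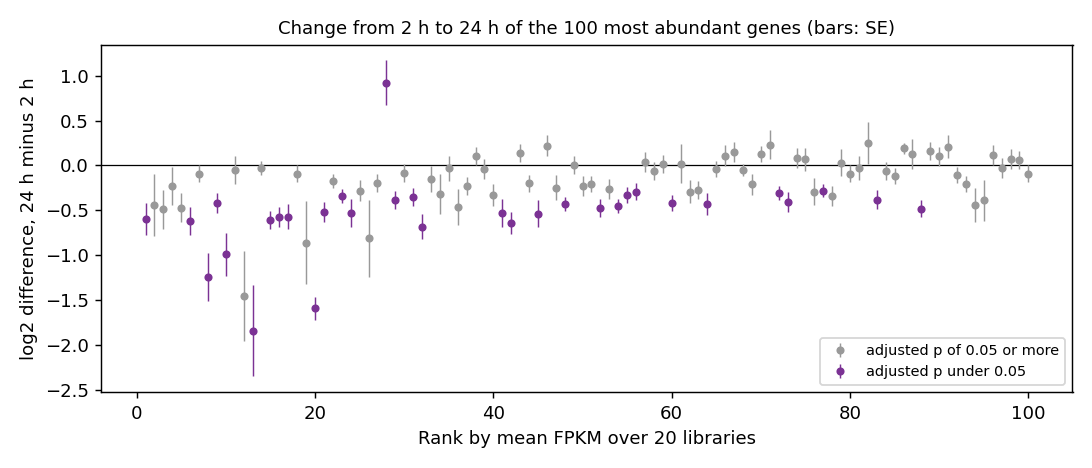
Difference between 24 h and 2 h on log2(FPKM + 1), mean of both phosphate levels, against rank by mean FPKM for each of the 100 genes. Bars are standard errors from limma and purple marks an adjusted p under 0.05: 31 purple genes lie below 0 and 1 lies above it, while under quantile normalization 4 were called lower and 11 higher.

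The falls were more frequent near the top of the ranking. Of the 10 leading genes 5 fell, of the 40 at ranks 11 to 50 15 fell and 1 rose, and of the 50 at ranks 51 to 100 11 fell. The median log2 difference was -0.48, -0.32 and -0.08 in these bands. No test of the difference between bands was made.

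The first gene, Potri.009G030800, with a recovered length of 599 bases, had the highest FPKM of all genes in 19 of 20 libraries. Its FPKM was 8704 and 6740 at 10 µM and 2 h, 9175 and 7143 at 4 h, 7243 and 5728 at 8 h, 5886 and 4641 at 12 h, and 4283 and 5257 at 24 h. At 200 µM it was 9208 and 6787 at 2 h, 6337 and 7829 at 4 h, 5579 and 7407 at 8 h, 5511 and 4371 at 12 h, and 6289 and 4859 at 24 h. All 24 h libraries lay under all 2 h libraries, whose lowest was 6740. The log2 difference was -0.60 ± 0.18 (SE), a fold of 0.658, with an adjusted p = 0.043 in limma. The F test over the 5 times in limma gave this gene an adjusted p = 0.052, and under quantile normalization its difference was 0.00. The fall was no longer called when any 1 of 11 of the 20 libraries was left out, at times other than 2 and 24 h too, with adjusted p-values of 0.0513 to 0.165 in limma.

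The gene at rank 2, Potri.001G400100, with a recovered length of 201 bases, differed between the replicates of each level at 2 h. It had an FPKM of 6472 and 2209 at 10 µM and of 7130 and 2631 at 200 µM at that time. Over the other 16 libraries its FPKM lay between 1982 and 4473. Replicate 1 was the high one at both levels, and the 2 h and 24 h libraries overlapped. Its log2 difference of -0.44 ± 0.35 (SE) did not pass the test (limma, adjusted p = 0.46), and it was 0.27 after quantile normalization.

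Potri.013G101000, at rank 3 with a recovered length of 1448 bases, had its highest mean at 4 h, with an FPKM of 3819 and 4072 at 10 µM and 3727 and 4557 at 200 µM. At 12 h the 4 libraries were between 1902 and 2800, below each library at 4 h. Between 24 h and 2 h it differed by -0.49 ± 0.22 (SE) on the log2 scale, which limma did not call (adjusted p = 0.17) and which was 0.03 after quantile normalization. Potri.001G102400, at rank 4 with a recovered length of 1053 bases, held a lowest FPKM of 1848 and a highest of 4033, both at 8 h. Its 24 h minus 2 h difference was -0.23 ± 0.21 (SE; limma, adjusted p = 0.53), and 0.45 after quantile normalization.

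In limma's F test over the 5 times, averaged over both levels, 26 of 100 members varied at an adjusted p under 0.05, against 14.6% of all tested genes. Of the 26, 21 were among the 31 falls, 1 was the rise, and 4 were called for their variation alone; 10 falls were not called by the F test. Neither test called the other 64 members.

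Potri.010G236500, at rank 20 with a recovered length of 547 bases, had the largest fall from 2 to 24 h among the members called by the F test. At 2 h its FPKM was 1905 and 1888 at 10 µM and 2039 and 1810 at 200 µM. The values were 1784, 1655, 1660 and 1813 at 4 h, 1458, 1182, 1168 and 1370 at 8 h, and 1100, 815, 1020 and 944 at 12 h, in the same order of levels. At 24 h they were 629 and 624 at 10 µM and 773 and 535 at 200 µM. The libraries of 4, 8, 12 and 24 h did not overlap with one another. The log2 difference between 24 h and 2 h was -1.59 ± 0.13 (SE), a fold of 0.333 (limma, adjusted p = 1.4e-05), and the F test over times gave an adjusted p = 5.6e-05. Its direction held at each level in each adjacent step, and it was the only member called lower from 12 to 24 h, by -0.60 ± 0.13 (limma, adjusted p = 0.035), where 0.421% of all tested genes were called lower. The call from 2 to 24 h stood whichever library was left out, and that from 12 to 24 h was lost without any 1 of 8 libraries (adjusted p of 0.0543 to 0.141).

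Potri.011G118900, at rank 8 with a recovered length of 201 bases, had an FPKM of 3112 and 2183 at 10 µM and of 4256 and 2653 at 200 µM at 2 h. At 24 h it had 1209 and 1237 at 10 µM and 1799 and 919 at 200 µM, all below the 2 h libraries. Its log2 difference was -1.24 ± 0.27 (SE), a fold of 0.424, with an adjusted p = 0.01 in limma. Without replicate 2 at 200 µM and 24 h the adjusted p was 0.0557, and under quantile normalization it was 0.0729.

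Potri.009G114701, at rank 28 with a recovered length of 1040 bases, was the member that rose. Its FPKM was 1371 and 546 at 10 µM and 1229 and 674 at 200 µM at 2 h. From 4 to 12 h its libraries lay between 602 and 1055. At 24 h it reached 1336 and 1652 at 10 µM and 1738 and 2101 at 200 µM, so that the lowest 24 h library, at 1336, lay under the highest 2 h library, at 1371. The log2 difference was 0.92 ± 0.25 (SE), a fold of 1.9 (limma, adjusted p = 0.027). It was no longer called without any 1 of 5 libraries, replicate 2 of either level at 2 h, either library of 10 µM at 24 h and replicate 2 of 200 µM at 24 h, with adjusted p-values of 0.0547 to 0.0997 in limma. Its F test over times had an adjusted p = 0.042, which was over 0.05 without any 1 of 13 libraries.

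Potri.017G059400, at rank 70, varied with time and was highest at 12 h. Its FPKM was 524 and 476 at 10 µM and 470 and 540 at 200 µM at 2 h, and it was 666 and 720 at 10 µM and 711 and 728 at 200 µM at 12 h. All 12 h libraries lay above every library of the other times, of which the highest reached 656 at 8 h. At 24 h the mean was 550 ± 14.3 (SD, n = 4). The F test over times gave an adjusted p = 0.021 and the 24 h minus 2 h difference was 0.13 ± 0.09 (SE; limma, adjusted p = 0.39). The F test was over 0.05 without replicate 2 of 10 µM or either library of 200 µM at 12 h (adjusted p of 0.0702 to 0.0852).

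**Figure D3:**
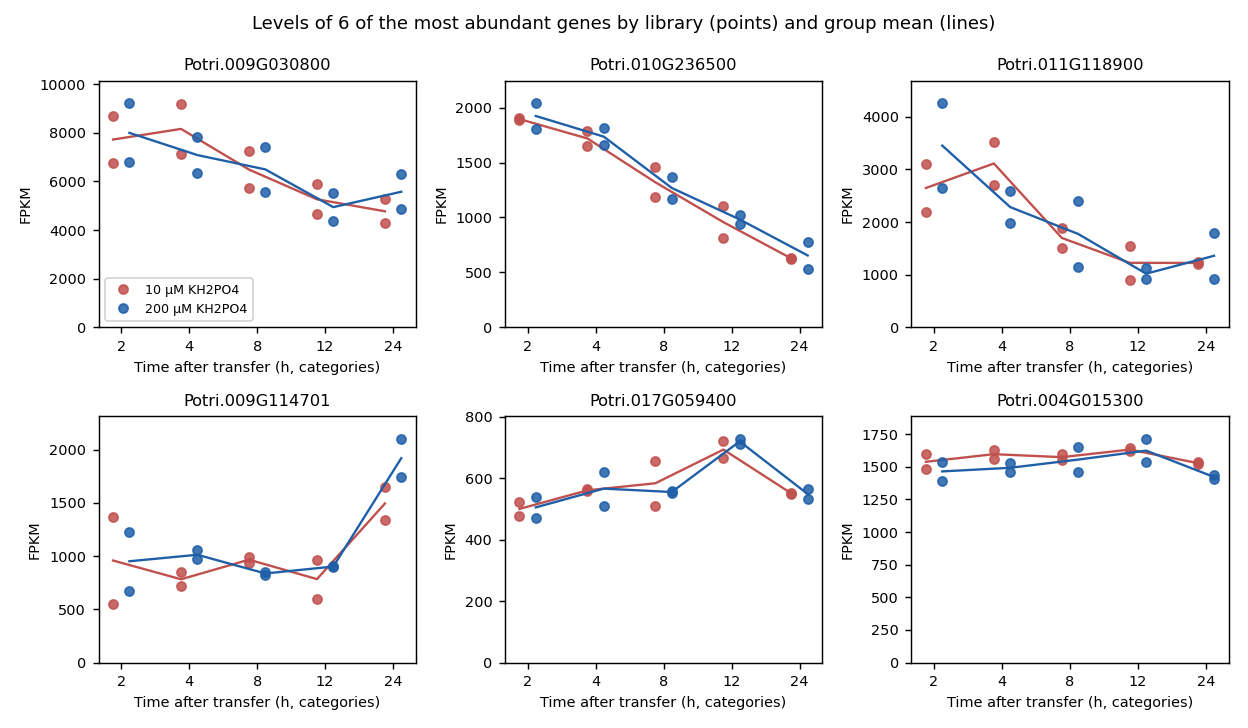
FPKM of 6 of the most abundant genes against hours after transfer as evenly spaced categories, with points for libraries and lines through group means (red 10 µM, blue 200 µM KH2PO4). Potri.010G236500 goes from 1910 to 640 between 2 and 24 h (means of 4 libraries), Potri.009G114701 is highest at 24 h, Potri.017G059400 is highest at 12 h, and Potri.004G015300 stays between 1393 and 1714.

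Potri.008G061800, at rank 65 with a recovered length of 680 bases, was the other member called between 12 and 24 h and was chosen after its values were seen. At 12 h its FPKM was 508.7 and 469.3 at 10 µM and 494.1 and 468.5 at 200 µM, and at 24 h it was 576.5 and 636.2 at 10 µM and 745.0 and 677.2 at 200 µM. The 4 libraries at 24 h all lay above the 4 at 12 h, and the call was lost without any 1 of these 8 (adjusted p of 0.0671 to 0.158 in limma). It rose by 0.44 ± 0.09 (SE) on the log2 scale (limma, adjusted p = 0.033), in a step where 1.05% of all tested genes were called higher and 1.47% in either direction.

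In the 3 earlier steps limma called no member at an adjusted p under 0.05. At an unadjusted p under 0.05 there were 5 members from 2 to 4 h, 11 from 4 to 8 h and 19 from 8 to 12 h, against 10.8%, 13.3% and 14.6% of all tested genes. The adjusted calls over all tested genes were 0.0481%, 0.241% and 0.108% in these steps. The 8 to 12 h step depended on 1 library, since members were called when replicate 2 at 10 µM and 8 h was left out. That setting was not compared with all tested genes in this step. A lower mean at each successive time was found in 6 of the 31 falls and in 7 of the 100 members. The share of all tested genes was not worked out. Means that differ within the spread cannot show whether a course was steady.

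By the time of the highest mean over both levels, the peak fell at 2 h in 44 members, at 4 h in 15, at 8 h in 11, at 12 h in 28 and at 24 h in 2. The shares of all tested genes were 19.1%, 16.9%, 11.8%, 24.0% and 28.2%. The lowest mean was at 24 h in 46 members and in 14.7% of all tested genes, and at 2 h in 12 members and in 28.8% of all. These counts are a description.

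**Figure D4:**
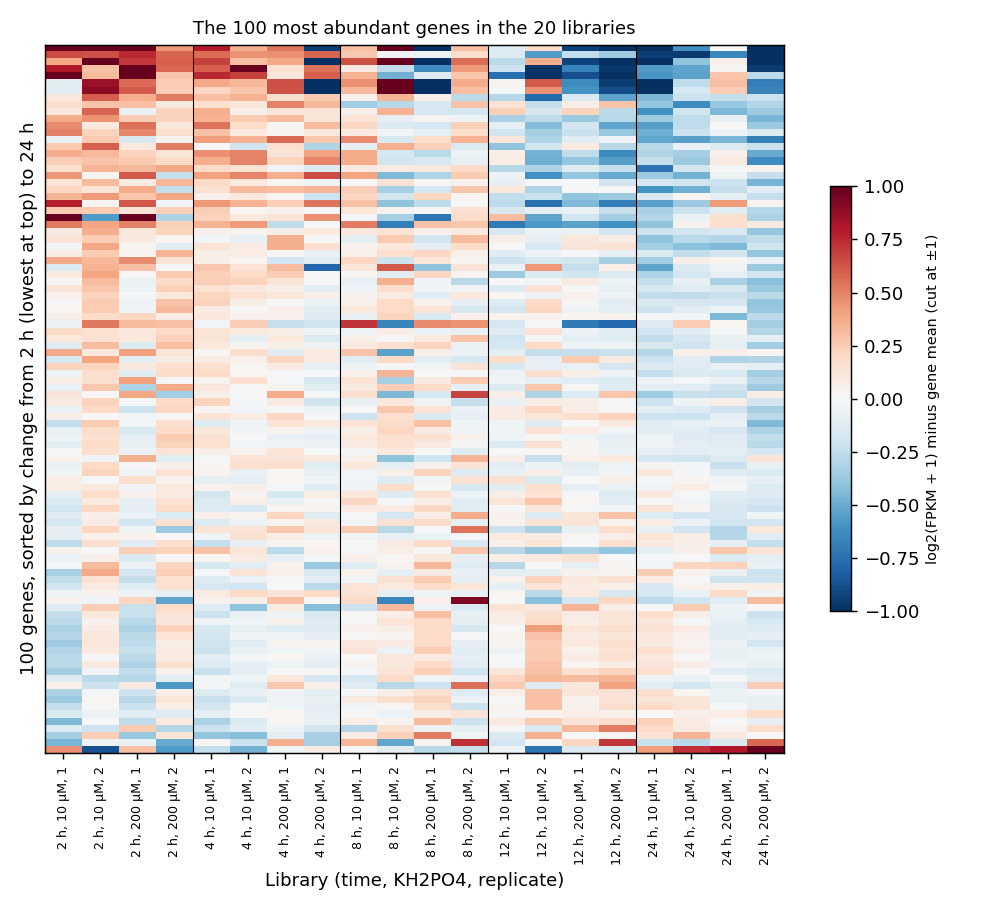
Level of each of the 100 genes (rows, sorted by the change from 2 to 24 h) in each of the 20 libraries (columns, ordered by time, phosphate level and replicate), as log2(FPKM + 1) minus the mean of the gene, with colours ending at -1 and 1. The upper rows are red at 2 and 4 h and blue at 12 and 24 h at both levels. Single libraries at 2, 4 and 8 h depart from their replicates in some rows.

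At the separate phosphate levels, limma called 6 members from 2 to 24 h at 10 µM, all lower, where 2.42% of all tested genes were called and 0.798% were called lower. At 200 µM it called 3, again all lower, against 3.69% of all tested genes called and 0.987% called lower. The difference between the levels in this change was called in 0 members and in 0% of all tested genes (limma); at an unadjusted p under 0.05 there were 1 member and 3.56% of all. The 95% interval of that difference, without adjustment, reached a median of 0.48 to either side on the log2 scale. Differences below about that size could not be seen in a single gene, and a call at an adjusted p needed a larger one. The change had the same sign at both levels in 80 of 100 members, 67 of them lower at both, and across the 100 genes, which are not independent replicates, the change at 10 µM and that at 200 µM had a Pearson correlation of 0.83. Neither the count of shared signs nor the correlation was worked out over all tested genes. Neither is therefore shown to be particular to the members. The libraries at the 2 levels were separate, but their independence at 2 h was not tested.

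No member passed the test between the phosphate levels. Averaged over the 5 times, limma called 0 of 100 members between 10 and 200 µM at an adjusted p under 0.05, with a smallest adjusted p of 0.611, against 0.0441% of all tested genes. At an unadjusted p under 0.05 there were 4 members and 7.13% of all. The log2 differences, 10 minus 200 µM, ranged from -0.32 to 0.76 with a median of 0.02, and 92 members were under 0.2 in size. The 95% interval lay within a 1.5-fold change in 95 members and within a 1.2-fold change in 73. The difference was positive in 66 of 100 members and in 51.3% of all tested genes. It had the same sign at all 5 times in 14 members, 12 of them higher at 10 µM, and in 10.2% of all tested genes.

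At single times limma called no member and no tested gene at an adjusted p under 0.05. At an unadjusted p under 0.05 the members counted 0, 1, 7, 1 and 4 at the 5 times in order, against 1.97%, 3.59%, 5.96%, 4.54% and 5.1% of all tested genes. Members were called at 8 h when replicate 1 at 10 µM and 8 h was left out, a setting not compared with all tested genes. The variation of the phosphate difference with time was called in 0 members (limma F test; 1 member and 3.01% of all tested genes at an unadjusted p under 0.05).

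The 2 largest positive phosphate differences belonged to Potri.007G062282 and Potri.011G074100, at ranks 12 and 13. Potri.007G062282 had an FPKM of 1998 and 6370 at 10 µM and of 408 and 1896 at 200 µM at 8 h. Its values at 2 h were 1687 and 2966 at 10 µM and 2102 and 1951 at 200 µM. The levels overlapped at 2, 4 and 24 h, while at 8 and 12 h both libraries at 10 µM lay above both at 200 µM. Its mean difference was 0.76 ± 0.32 (SE) on the log2 scale (limma, adjusted p = 0.66), falling to 0.59 when replicate 2 of 10 µM at 8 h was left out and to 0.53 when replicate 1 of 200 µM at 8 h was. Potri.011G074100 differed by 0.75 ± 0.32 (limma, adjusted p = 0.67).

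The 2 largest negative differences were smaller. Potri.001G019700, at rank 82, had an FPKM between 352 and 638 over the 10 libraries at 10 µM and between 357 and 839 over those at 200 µM, and differed by -0.32 ± 0.15 (SE; limma, adjusted p = 0.7). Potri.013G041600, at rank 61, differed by -0.25 ± 0.14 (SE; limma, adjusted p = 0.76), with its lowest FPKM of 405 and its highest of 1214 both at 8 h, in replicate 2 at 10 µM and replicate 2 at 200 µM.

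Potri.007G062282 also had the largest coefficient of variation over the 20 libraries, 80.7%, and 4 other members followed it from library to library. These 4 were chosen after their values were seen. On log2(FPKM + 1) over 20 libraries its correlation was 0.969 with Potri.011G074100, 0.962 with Potri.007G062081, 0.961 with Potri.007G062061 and 0.838 with Potri.008G224138. Without replicate 2 at 10 µM and 8 h the 4 values were 0.96, 0.951, 0.948 and 0.801 over 19 libraries. The next member in this order had a correlation of 0.681 over 20 libraries. Without that library, values were listed only for the members with the highest correlations over 20 libraries. Among these the next value was 0.751, so Potri.008G224138 stood less apart there than the other 3.

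In replicate 2 at 10 µM and 8 h the 5 genes had an FPKM of 6370, 5731, 3714, 2801 and 727, in the order Potri.007G062282, Potri.011G074100, Potri.007G062081, Potri.007G062061 and Potri.008G224138. In replicate 1 at 200 µM and 8 h the values were 408, 326, 487, 447 and 358. Together they made up 2.95% of the FPKM sum in the first of these libraries and between 0.307% and 1.5% in the other 19. Replicates of a group could lie far apart: at 200 µM and 4 h Potri.011G074100 had 1759 in one library and 628 in the other. The spread between replicates was not compared with that between conditions for these 5 genes. How reads shared by near-identical genes were divided is not known, so the separate levels of these 5 are uncertain where they share sequence.

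Of the 5, Potri.011G074100 was among the 31 falls, with an FPKM of 2761 and 2607 at 10 µM and 2621 and 1640 at 200 µM at 2 h. At 24 h it had 379 and 795 at 10 µM and 1208 and 512 at 200 µM, without overlap. Its log2 difference of -1.84 ± 0.51 (SE; limma, adjusted p = 0.03) was the lowest of the members. It was no longer called without any 1 of 5 libraries, either library of 10 µM at 2 h, replicate 1 of 200 µM at 2 h, replicate 1 of 10 µM at 24 h and replicate 2 of 200 µM at 24 h (adjusted p of 0.0663 to 0.13). The 5 together accounted for 17.3% of the members' decrease in FPKM between 2 and 24 h.

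**Figure D5:**
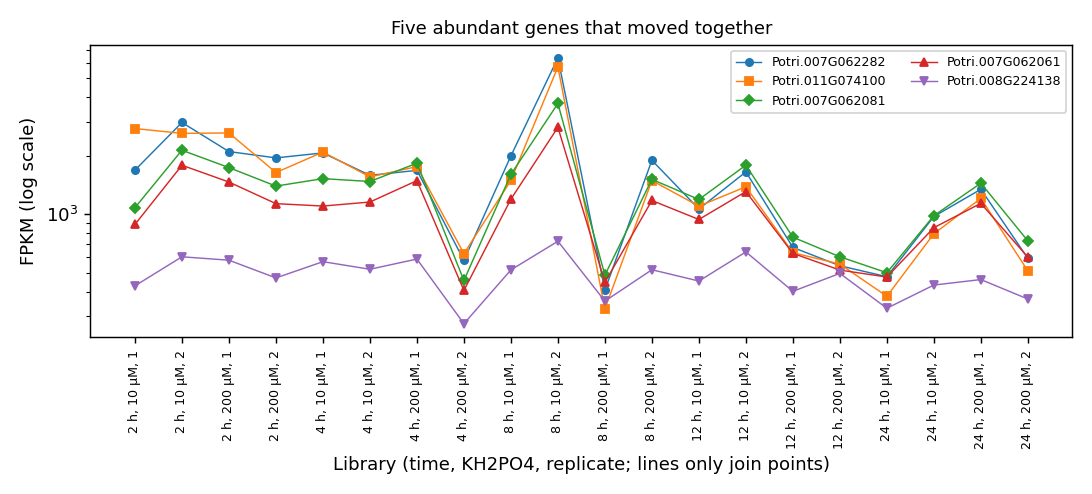
FPKM on a log axis of the 5 members that moved together, in each of the 20 libraries ordered by time, phosphate level and replicate; lines only join points. All 5 are highest in replicate 2 at 10 µM and 8 h, where Potri.007G062282 reaches 6370, and all 5 are lower in replicate 2 than in replicate 1 at 200 µM and 4 h.

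The order among the members was kept broadly across libraries. The 100 genes that led a single library shared 82 to 94 genes, with a median of 90, with the 100 members. Of the members, 61 were among the leading 100 of all 20 libraries and 95 among the leading 200, and the lowest rank that any member took in a library was 279. In all, 154 genes reached the leading 100 of at least 1 library. Spearman's rho of the members' levels between libraries was 0.634 to 0.976 over 190 pairs of libraries, with a median of 0.84. Between the replicates of a group it was 0.698 to 0.975, a range that lay within that of all pairs. Whether libraries of different times differed more in order than replicates was not tested. The leading 100 of the 2 h mean and of the 24 h mean shared 86 genes. The library in which Potri.009G030800 was not first was replicate 2 at 10 µM and 8 h, where Potri.007G062282 was.

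The members varied to different degrees. The median coefficient of variation over 20 libraries was 12.8%, with 24 members under 10% and 10 over 30%. Potri.004G015300, at rank 14, had the smallest, 5.63%, with a lowest FPKM of 1393, a mean of 1542 and a highest of 1714. In 10 members the replicates of at least 1 group differed by 2-fold or more.

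Length was a feature that set many members apart from the rest of the table. The lengths recovered from the FPKM steps had a median of 962 bases in the members, from 156 to 4039, against 1807 in all tested genes. Under 400 bases were 24 of 100 members and 3.3% of all tested genes. FPKM divides by length, so a short gene needs fewer fragments for a high value, and length is not independent of the measure that chose the members. The 31 falls had a median length of 733 bases and the other 69 a median of 1018. Whether length plays a part in the falls was not tested.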

How the data were processed

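RNA sequencing of 20 libraries, 2 for each of 5 times at 2 phosphate levels, was analysed. The authors deposited FPKM values for 34699 genes, with 0 further columns. HISAT2 2.1.0 and Bowtie2 2.2.3 were used, per the submitters' processing notes, which give no roles; genome build, annotation and counter were not given in the sources used here. Groups came from the labels. Whole fragments were recovered from the FPKM steps: all 24934 tested genes came out whole within 0.06 fragment, searching lengths of 60 to 20000 bases. Genes at or above an FPKM of 1 in 2 or more libraries were fitted on log2(FPKM + 1) with limma 3.58.1 (R 4.3.3, variance trend, 10 group means) and p-values were Benjamini-Hochberg adjusted over all tested genes, threshold 0.05; fold changes are on that scale. The pseudocount of 1 is small beside the members' levels. The share was tested by permutation of libraries (SciPy 1.17.1, Python 3.11.15). Procedures were tested on simulated data.

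The members, lists and tests were chosen with earlier results of these data known. Lists defined by gene description and cell type markers were void, since identifiers carry no description. Named were the 4 most abundant members, at most 2 risers and 2 fallers among those varying with time, the 2 highest and 2 lowest phosphate differences, the smallest and largest coefficient of variation, and the genes on either side of the boundary. Other named genes are marked as chosen after their values were seen. Alternatives were another pseudocount (0.1), no filter, median scaling, quantile normalization, voom on fragments, no variance trend, a replicate block, 50 or 200 members, and leaving out libraries.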

Additional observations from a re-analysis of the deposited data

How the results depend on the processing

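Counts of called members moved by over 1.5 times in these settings. Without a filter on low values, 13 varied with time (26 as reported), 16 differed between 24 and 2 h (32), 0 between 24 and 12 h (2) and 1 at 10 µM (6). Quantile normalization gave 15 between 24 and 2 h, 4 of them lower and 11 higher. Over all tested genes it called 1318 lower and 1475 higher there. Between 24 and 12 h it gave 4 members. By its construction the leading ranks cannot shift together. Over all tested genes, voom on recovered fragments called 2062 higher and 1046 lower between 24 and 2 h (2007 and 1057 as reported), and of the members 6 differed between 24 and 12 h, 10 between 24 and 2 h at 10 µM and 8 at 200 µM (3 as reported). Without the 4 libraries at 8 h these counts were 7, 10 and 5. At 200 µM, median scaling gave 7 and no variance trend 5. For the others the cause was not tested. All 31 falls were shared by median scaling, voom, the pseudocount of 0.1 and the fit without 8 h, 30 by no variance trend and the replicate block, 15 by no filter and 4 by quantile normalization. The mean share was 10.8% for 50 members, 21.4% for 200 and 9.26% in fragments; its phosphate difference turned from 0.40 to -0.01 percentage points without the 5 members that moved together, an alternative chosen after seeing the data. Leaving out 1 library at a time gave 13 to 34 members varying with time (17 when replicate 2 of 10 µM at 4 h was left out, 16 and 13 when replicate 1 or 2 of 200 µM at 12 h was), 12 to 33 between 24 and 2 h, 0 to 7 between 12 and 8 h, 0 to 7 between 24 and 12 h, 1 to 8 at 10 µM, 1 to 6 at 200 µM and 0 to 2 between levels at 8 h. These member counts were not set beside the counts over all tested genes, which also changed between 24 and 2 h. A group left with 1 library is assumed to vary like the others.

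Replicate numbers did not pair the libraries throughout. Over all tested genes, deviations of same-numbered libraries correlated from -0.431 to 0.504 over 45 pairs of groups, with 7 over 0.1. Over the members the range was -0.681 to 0.677, with a median of -0.0347. At 2 h the 10 leading genes held 5.82% and 6.21% in replicate 1 at 10 and 200 µM, and 4.33% and 4.05% in replicate 2. Whether same-numbered libraries at 2 h are independent across the levels was not tested. The main fit and the permutation tests took all libraries as independent, so their p-values for 24 h against 2 h rest on that assumption. With the replicate block 25 members varied with time, 31 differed between 24 and 2 h (30 lower), 3 between 24 and 12 h, 7 at 10 µM and 3 at 200 µM. Quantile normalization turned the uncalled 24 h minus 2 h differences of Potri.001G400100 (0.27), Potri.013G101000 (0.03) and Potri.001G102400 (0.45) positive. Between 24 and 2 h, no filter on low values ended the calls of the named genes other than Potri.010G236500 and Potri.011G118900. In the limma F test over times it ended the calls of Potri.011G118900 (adjusted p = 0.0506) and Potri.009G114701 (adjusted p = 0.123). With 2 libraries a group, small differences in single members could not be detected.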
